A study of Homo sapiens with 12 samples.

Results

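The kallikrein genes KLK2, KLK3, KLK4 and KLK15, a cluster of secreted serine proteases, were followed in VCaP cells after knockdown of PIAS1 and after treatment with testosterone. Every probe annotated to these symbols was taken, which gave 5 of the 47323 probes on the array, covering 4 of 20046 named genes. KLK2, KLK3 and KLK4 had 1 probe each and KLK15 had 2. VCaP is a prostate cancer cell line established from a vertebral bone metastasis, and for the last 100 h before RNA extraction every culture grew in 2.5% charcoal-stripped serum, which is depleted of steroids. The 4 groups held 3 arrays each, 12 arrays in all. siPIAS1+T cells carried an siRNA pool against PIAS1 for 96 h and received 100 nM testosterone for the last 16 h, and siPIAS1 cells carried the same pool without the hormone. siSCR+T cells carried the control pool siSCR for 96 h and received 100 nM testosterone for 16 h, and siSCR cells carried the control pool alone. All groups are thus transfected cells of 1 line, and an untransfected group was not analysed here. The labels number the replicates without saying that they came from separate cultures, so each p-value is set against a spread that may be technical.

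KLK3 encodes prostate-specific antigen (PSA), the chymotrypsin-like protease that cleaves the semenogelins of the seminal clot and is measured in blood as a marker of prostate disease. KLK2 encodes a trypsin-like protease that can cut the propeptide from PSA, and KLK4 and KLK15 encode further trypsin-like members for which the same activity has been described on purified proteins. In luminal prostate cells androgens act on target genes through response elements in the DNA, and KLK2 and KLK3 are textbook targets of this kind. PIAS1 is a SUMO E3 ligase, an enzyme that helps attach the small protein SUMO to other proteins, and it is known as a coregulator of steroid hormone signalling. The comparisons ask whether the hormone response of these genes differs when PIAS1 is depleted.

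In RefSeq the genes lie side by side on chromosome 19 in the order KLK1, KLK15, LOC105372441 (a long non-coding RNA), KLK3, KLK2, KLKP1 (a transcribed pseudogene) and KLK4. The stretches just before the starts of KLK2 and KLK3 are shown because these neighbours are close in sequence there and yet had different patterns across the groups below. Both are 250 bases of the plus strand of GRCh38.p14 from the RefSeq promoter table, written 5′ to 3′, and capitals mark the closest match to the androgen response element, an inverted repeat spelled AGAACA, 3 free letters and TGTTCT.

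KLK2, chr19:50873189-50873438: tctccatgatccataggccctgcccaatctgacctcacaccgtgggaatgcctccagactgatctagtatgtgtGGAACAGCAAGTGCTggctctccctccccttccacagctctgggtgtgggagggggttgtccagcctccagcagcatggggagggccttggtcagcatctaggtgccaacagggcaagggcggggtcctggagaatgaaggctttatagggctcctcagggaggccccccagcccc

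KLK3, chr19:50854665-50854914: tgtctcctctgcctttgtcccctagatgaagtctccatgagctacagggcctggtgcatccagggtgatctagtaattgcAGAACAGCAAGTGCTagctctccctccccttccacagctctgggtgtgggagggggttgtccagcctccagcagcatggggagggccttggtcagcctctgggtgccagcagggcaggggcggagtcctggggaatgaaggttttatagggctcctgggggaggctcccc

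Each window was searched over 250 bases before and 50 bases after the start, on both strands, for the 12 fixed letters of that element. KLK3 matched 10 of the 12 letters at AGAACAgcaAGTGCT, which lies 170 to 156 bases before the start and departs from the element by T10A and T13G (element letter, position from the element's 5′ end with free letters counted, letter found). Of 34943 RefSeq promoter windows of the same length, 1.41% matched as well. KLK2 matched 9 of the 12 letters at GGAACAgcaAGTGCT, 176 to 162 bases before the start, with A1G, T10A and T13G, and 10.8% of windows matched as well. The KLK2 and KLK3 windows were identical in 79.3% of 309 aligned positions, with an unbroken identical run of 80 bases, whereas pairs of windows from different genes outside this pair were identical in 43.6% to 50.5%. KLK4 and KLK15 have 2 windows each in the table. Their best matches held 6 or 7 of the 12 letters, which 99.7% and 89.2% of windows reached. The shorter motif AGAACA, which is also the left arm of the element, stood on either strand in the KLK3 window and in none of the other 5 windows, and 14.8% of all windows held it. The letters TATAAA were searched on the gene's strand and stood in 1 of the KLK15 windows, 30 bases before the start, and 7.35% of all windows held them. These matches describe letters in short windows. DNA farther from the starts was not searched, and binding was not measured.

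On the arrays, 32.5% to 36.0% of the probes were detected (detection p under 0.01) with median scanner signals of 93.7 to 110. Of all probes, 17835 were detected on at least 3 arrays and were tested. Luminal markers were present, with KRT8, KRT18, KRT19, EPCAM, CDH1 and HOXB13 detected on all 12 arrays, as was ERG, which the line expresses from a fusion with TMPRSS2. FOLH1, the luminal antigen PSMA, was missed on 1 of the 3 siSCR+T arrays and averaged 7.30 in siPIAS1+T, 10.26 in siPIAS1, 6.45 in siSCR+T and 10.13 in siSCR cells on the normalized log2 scale. The neuroendocrine marker CHGA was detected on all 12 arrays, with mean levels of 10.59 in siPIAS1+T, 11.75 in siPIAS1, 10.95 in siSCR+T and 11.32 in siSCR cells. CHGA is 1 of 4 listed neuroendocrine markers, of which 3 had a tested probe and did not move together. By the test given below, testosterone raised 1 and lowered 2 of them after siPIAS1, against 24.6% and 26.8% of all probes. After siSCR it raised 1 and lowered 1, against 19.2% and 20.7%. Of the basal markers KRT5, KRT14, TP63 and DST, only DST had a tested probe. Replicate 3 of the siPIAS1+T group stood apart: its correlation with the other arrays of its group averaged 0.978, against at least 0.986 for every other array with its own group, so kallikrein, PIAS1 and gene list results that rest on that group are also given without it.

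PIAS1 itself checked the labels. Its probe had scanner signals of 1379, 1530 and 2021 in siPIAS1+T cells and 595, 512 and 657 in siPIAS1 cells, against 2756, 3054 and 3018 in siSCR+T cells and 1425, 1459 and 1427 in siSCR cells. The siPIAS1 arrays were below the siSCR arrays at either hormone state. PIAS1 was 1.70-fold lower in siPIAS1+T than in siSCR+T cells (log2 difference -0.76 ± 0.11, adjusted p = 2.36e-04) and 2.31-fold lower in siPIAS1 than in siSCR cells (-1.21 ± 0.11, adjusted p = 1.88e-05). Testosterone also raised PIAS1, by 1.54 ± 0.11 after siPIAS1 and by 1.09 ± 0.11 after siSCR on the log2 scale, and its level averaged 10.65 ± 0.16 in siPIAS1+T, 9.11 ± 0.13 in siPIAS1, 11.41 ± 0.08 in siSCR+T and 10.32 ± 0.06 in siSCR cells (SD, n = 3 each). The normalized PIAS1 level of the siPIAS1+T arrays was thus no lower than that of the siSCR arrays, a pair that was not tested. When siPIAS1+T replicate 3 was left out, the difference from siSCR+T cells was -0.86 (adjusted p = 5.96e-05) and the testosterone response after siPIAS1 was 1.45 (adjusted p = 9.94e-08).

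Differences here and below are log2 differences of normalized signal ± SE from limma's moderated test, with p-values adjusted by Benjamini-Hochberg over all 17835 probes and called at 0.05, and levels are mean normalized log2 signal ± SD over 3 arrays. A probe's level is compared only with its own level in other groups. Where a probe was not detected on any array of the dimmer group, the fold is a lower bound against the dimmest detected signal of those arrays.

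KLK2, the activator of PSA, was the member for which a difference in hormone response between knockdown and control passed the test. Its probe (ILMN_2371917, transcript NM_005551) was detected on all 12 arrays. The scanner signals were 8710, 9557 and 9031 in siPIAS1+T cells and 9668, 9719 and 9853 in siPIAS1 cells, against 13655, 16661 and 14945 in siSCR+T cells and 7900, 9335 and 8024 in siSCR cells. The siSCR+T arrays were far above the rest, while the siPIAS1+T arrays lay just below the siPIAS1 arrays. Normalized levels averaged 13.22 ± 0.04 in siPIAS1+T, 13.40 ± 0.03 in siPIAS1, 13.83 ± 0.13 in siSCR+T and 12.90 ± 0.17 in siSCR cells. From lowest to highest the order of the normalized levels was siSCR, siPIAS1+T, siPIAS1 and siSCR+T, and no neighbours in it overlapped.

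KLK3 was measured by a single probe (ILMN_1748981) annotated to NM_001030047, which is 1 of the 3 curated RefSeq transcripts of the gene. Which of the others it detects is not known here, and its low signal stands for that probe and not for all PSA mRNA. The scanner signals were 192, 213 and 317 in siPIAS1+T cells and 142, 138 and 173 in siPIAS1 cells, against 196, 252 and 245 in siSCR+T cells and 125, 124 and 125 in siSCR cells. Both testosterone groups were high and overlapped each other, and the siSCR arrays were lowest. The probe was detected on 9 of the 12 arrays and on none of the siSCR arrays, where the detection p was 0.0325, 0.0299 and 0.0221. Normalized levels averaged 7.47 ± 0.28 in siPIAS1+T, 6.45 ± 0.24 in siPIAS1, 7.42 ± 0.30 in siSCR+T and 5.73 ± 0.09 in siSCR cells, and the order was siSCR, siPIAS1, siSCR+T and siPIAS1+T with only the last neighbours overlapping.

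KLK4, the protease also called prostase, had the same order of groups as KLK3. Its probe (ILMN_1792363, NM_004917) gave scanner signals of 26560, 27822 and 26257 in siPIAS1+T cells and 20695, 20524 and 20797 in siPIAS1 cells, against 29442, 29639 and 29501 in siSCR+T cells and 20370, 18025 and 18041 in siSCR cells. Both testosterone groups were above both groups without hormone. Normalized levels averaged 14.88 ± 0.01 in siPIAS1+T, 14.40 ± 0.06 in siPIAS1, 14.80 ± 0.04 in siSCR+T and 14.02 ± 0.04 in siSCR cells, with no overlap between neighbours in the order. The scanner signals put siPIAS1+T below siSCR+T and the normalized levels put it above. The KLK4 signal reached 42.0% to 74.7% of the highest signal on its array.

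KLK15, named prostinogen in its early descriptions, had 2 probes that gave different pictures although both are annotated to NM_017509. The probe ILMN_2347097 was detected on all 12 arrays, with scanner signals of 218, 205 and 277 in siPIAS1+T cells and 258, 228 and 251 in siPIAS1 cells, against 200, 192 and 196 in siSCR+T cells and 199, 209 and 194 in siSCR cells. The siPIAS1 arrays of either hormone state were mostly above the siSCR arrays, by a small margin. Normalized levels averaged 7.46 ± 0.13 in siPIAS1+T, 7.54 ± 0.06 in siPIAS1, 7.11 ± 0.05 in siSCR+T and 6.92 ± 0.10 in siSCR cells. The order was siSCR, siSCR+T, siPIAS1+T and siPIAS1, of which only the last neighbours overlapped. The probe ILMN_2260715 was detected on none of the 12 arrays (signal 52.2 to 95.7, detection p 0.173 to 0.986) and was not tested. Its highest signal, 95.7, came from siPIAS1+T replicate 3, against 53.2 and 55.3 on the other siPIAS1+T arrays.

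**Figure D1:**
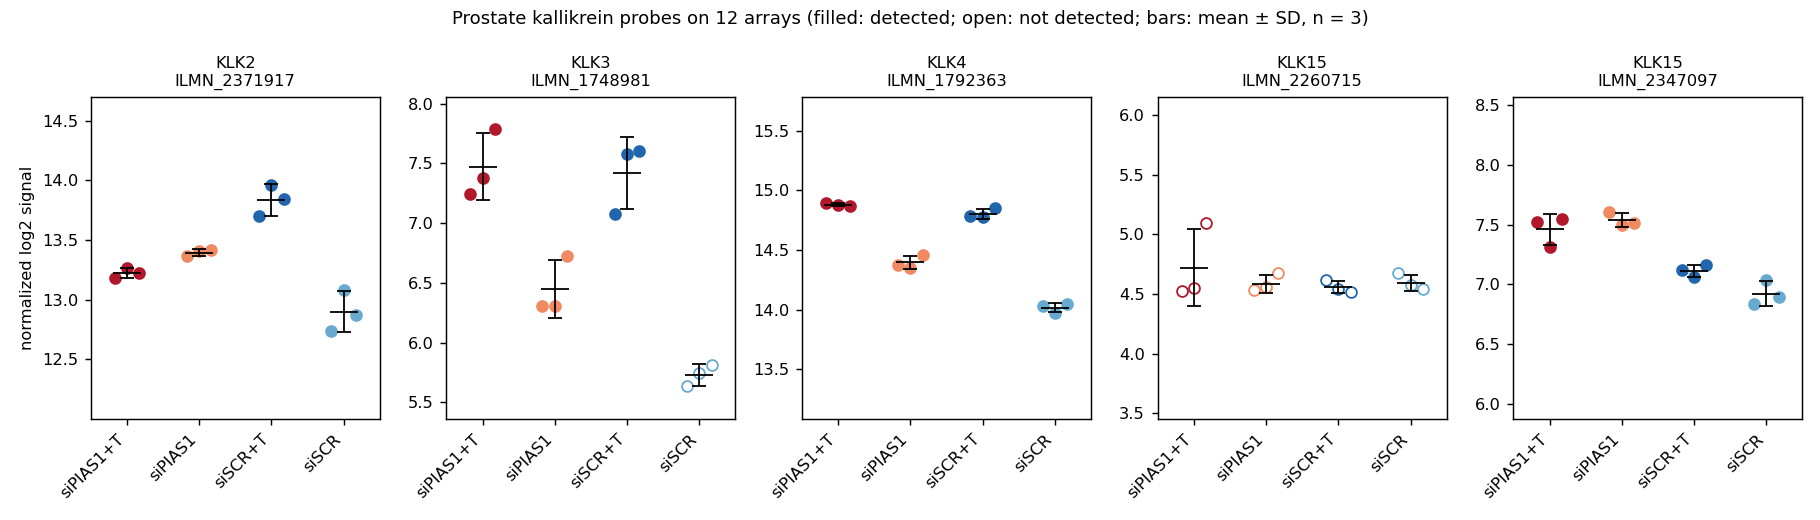
Normalized log2 signal (vertical axis) of the 5 kallikrein probes in the 4 groups, 1 point an array, filled where the probe was detected, with bars for the mean ± SD of 3 arrays; every panel spans the same number of log2 units. KLK2 is highest in siSCR+T (13.83), KLK3 and KLK4 are high in both testosterone groups, and the detected KLK15 probe is higher in the siPIAS1 groups than in the siSCR groups.

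These were bulk RNA samples, in which fewer expressing cells and less RNA per cell cannot be told apart. In control cells testosterone raised 3 of the 4 tested kallikrein probes, where 19.2% of all tested probes were called higher, 20.7% lower and 39.9% in either direction. KLK2 rose 1.91-fold (0.94 ± 0.11, 95% interval 0.70 to 1.17, adjusted p = 1.02e-05), and KLK4 rose 1.73-fold (0.79 ± 0.09, interval 0.60 to 0.97, adjusted p = 6.55e-06). KLK3 was at least 2.43-fold higher in siSCR+T than in siSCR cells (1.69 ± 0.17, adjusted p = 3.20e-06). KLK15 was not called, at 0.19 ± 0.10 (interval -0.03 to 0.41, adjusted p = 0.158), although its siSCR+T arrays were all above its siSCR arrays after normalization, as held for 27.0% of the probes.

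After PIAS1 knockdown testosterone raised KLK3 and KLK4 only, against 24.6% of probes called higher, 26.8% lower and 51.3% in either direction. KLK3 rose 2.04-fold (1.03 ± 0.17, interval 0.65 to 1.40, adjusted p = 2.48e-04) and KLK4 rose 1.40-fold (0.48 ± 0.09, interval 0.30 to 0.67, adjusted p = 4.11e-04). KLK2 was not called, with a difference of -0.17 ± 0.11 and an interval of -0.40 to 0.06 (adjusted p = 0.205). All 3 siPIAS1+T arrays were below all 3 siPIAS1 arrays for KLK2, which held in this direction for 29.4% of probes. KLK15 had a difference of -0.08 ± 0.10 (interval -0.30 to 0.14, adjusted p = 0.536). Without siPIAS1+T replicate 3 the differences were -0.17 for KLK2, 0.87 for KLK3, 0.48 for KLK4 and -0.12 for KLK15, with the same calls.

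The difference between both hormone responses (the response after siPIAS1 minus that after siSCR) was below 0 for each of the 4 probes and was called for KLK2. It was -1.11 ± 0.15 for KLK2 (interval -1.44 to -0.78, adjusted p = 5.99e-04), where 3.93% of probes were called lower, 3.83% higher and 7.76% in either direction. Only 0.729% of the 17835 probes had a difference as low as that of KLK2. It was -0.66 ± 0.25 for KLK3 (interval -1.19 to -0.14, adjusted p = 0.113), -0.30 ± 0.12 for KLK4 (interval -0.57 to -0.04, adjusted p = 0.145) and -0.27 ± 0.14 for KLK15 (interval -0.57 to 0.04, adjusted p = 0.260). Without siPIAS1+T replicate 3 the values were -1.12 for KLK2, -0.82 for KLK3, -0.31 for KLK4 and -0.31 for KLK15, and KLK3 then passed the threshold (adjusted p = 0.0335). KLK3 also passed it without siSCR+T replicate 1 (-0.84, adjusted p = 0.0373). The KLK3 probe was not detected on any siSCR array, so its response after siSCR is a lower bound, and its interaction values and these threshold passes rest on signal below detection. Under other ways of processing the KLK3 interaction lay between -0.87 and -0.14. The 4 probes share the same arrays, so their common sign is not 4 separate observations.

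**Figure D2:**
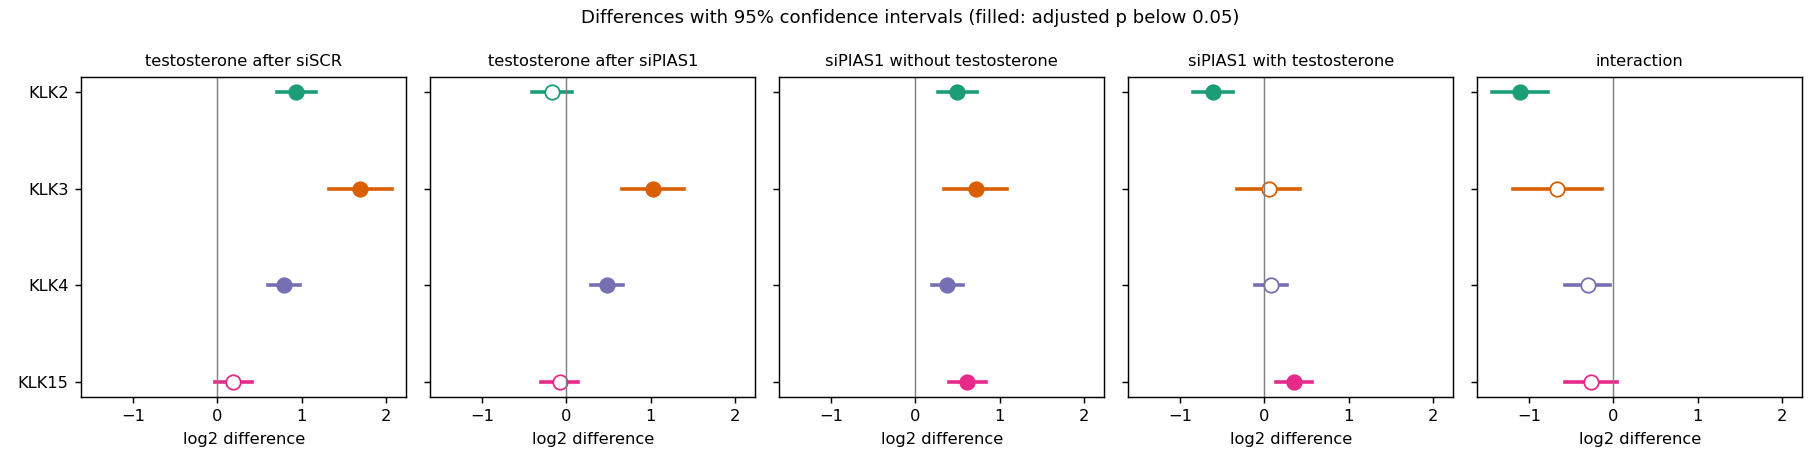
Log2 differences (horizontal axis) of the 4 tested kallikrein probes (rows) in the 5 comparisons (panels), with 95% intervals as bars and filled points where the adjusted p was below 0.05. KLK2 is higher with testosterone after siSCR (0.94), near 0 after siPIAS1 (-0.17), and has the lowest interaction (-1.11).

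KLK2 can be placed among all hormone-raised probes. Of 3426 probes that testosterone raised in control cells, 295 (8.61%) had a called interaction below 0. In 191 of them (5.58%) the rise was no longer called after siPIAS1, of which 49 were called lower and 142, KLK2 among them, were not called.

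Without testosterone, PIAS1 knockdown raised all 4 tested kallikrein probes, against 5.51% of probes called higher, 4.07% lower and 9.58% in either direction. KLK15 rose 1.53-fold (0.62 ± 0.10, interval 0.40 to 0.83, adjusted p = 0.00188) and KLK2 rose 1.41-fold (0.50 ± 0.11, interval 0.26 to 0.73, adjusted p = 0.0120). KLK4 rose 1.30-fold (0.38 ± 0.09, interval 0.19 to 0.57, adjusted p = 0.0157), and KLK3 was at least 1.24-fold higher in siPIAS1 than in siSCR cells (0.72 ± 0.17, adjusted p = 0.0205). For each of the 4 probes the siPIAS1 and siSCR arrays did not overlap, which held in this direction for 18.9% of probes. The KLK15 call held under every alternative tried, but its size did not: it was 0.57 to 0.67 without 1 array and 0.24 to 0.62 in the other settings. The other calls were less firm. Scaling each array to its 75th percentile in place of quantile normalization left KLK2 at 0.35 (adjusted p = 0.107) and KLK4 at 0.27 (adjusted p = 0.173), and under that scaling the probes called were 789 higher and 984 lower, against 983 higher and 725 lower as reported. Without siSCR replicate 1 the values were 0.41 for KLK2 (adjusted p = 0.0682), 0.67 for KLK3 (adjusted p = 0.0835) and 0.37 for KLK4 (adjusted p = 0.0632). KLK3 was also not called in the authors' log2 table, where its difference was 0.15 (adjusted p = 0.243), and its siSCR level is below detection.

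With testosterone present, PIAS1 knockdown lowered KLK2 and raised KLK15, where 15.3% of probes were called lower, 13.6% higher and 28.9% in either direction. KLK2 was 1.53-fold lower in siPIAS1+T than in siSCR+T cells (-0.61 ± 0.11, interval -0.84 to -0.38, adjusted p = 0.00111). KLK15 was 1.27-fold higher (0.35 ± 0.10, interval 0.13 to 0.57, adjusted p = 0.0200), a call that was lost without siSCR+T replicate 2 (0.32, adjusted p = 0.0748) or without siPIAS1+T replicate 1 (0.32, adjusted p = 0.0559). KLK3 was at 0.05 ± 0.17 (interval -0.32 to 0.43, adjusted p = 0.845) and KLK4 at 0.08 ± 0.09 (interval -0.11 to 0.26, adjusted p = 0.543), so that neither a small rise nor a small fall is shown for them. The sign for KLK4 turned under 75th percentile scaling, to -0.13. Without siPIAS1+T replicate 3 the values were -0.62 for KLK2, -0.10 for KLK3, 0.08 for KLK4 and 0.31 for KLK15, with the same calls. All 3 siPIAS1+T arrays were below the siSCR+T arrays for KLK2, which held in this direction for 20.8% of probes, and above them for KLK4 and KLK15 after normalization, which held for 18.6%. The comparisons share groups, so a low siPIAS1+T level of KLK2 enters both this difference and the interaction. The knockdown difference without testosterone enters the interaction as well. It was 0.50 for KLK2 and 0.38 for KLK4, and neither was called under every alternative.

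The array holds 21 probes of 13 other kallikrein genes, and 18 of these probes were detected on no array. KLKP1, the transcribed pseudogene between KLK2 and KLK4, was detected on all 12. Its level averaged 8.49 ± 0.10 in siPIAS1+T, 7.31 ± 0.14 in siPIAS1, 9.04 ± 0.09 in siSCR+T and 7.26 ± 0.12 in siSCR cells. Testosterone raised it 2.27-fold after siPIAS1 (1.18 ± 0.11, adjusted p = 1.03e-06) and 3.44-fold after siSCR (1.78 ± 0.11, adjusted p = 1.81e-08), and the interaction was -0.60 ± 0.16 (adjusted p = 0.0305). Unlike KLK2, KLKP1 was still raised by the hormone after siPIAS1. It was lower in siPIAS1+T than in siSCR+T cells (-0.55 ± 0.11, adjusted p = 0.00246), and without hormone the knockdown gave 0.05 ± 0.11 (adjusted p = 0.833). The KLKP1 interaction was no longer called without any 1 of 7 arrays, where it lay between -0.61 and -0.54 with adjusted p between 0.0613 and 0.0890. KLKP1 kept its calls without siPIAS1+T replicate 3, with a response of 1.17 after siPIAS1, an interaction of -0.61 (adjusted p = 0.0252) and a difference of -0.56 from siSCR+T cells. KLK12, another protease of the family, was detected on the 3 siPIAS1 arrays alone, with 6.37 ± 0.01 there, 5.86 ± 0.10 in siPIAS1+T, 5.10 ± 0.13 in siSCR+T and 5.12 ± 0.38 in siSCR cells. This KLK12 probe met the detection filter only through the siPIAS1 group, where it was highest, so no p-value is given for it. Its signal was at least 1.18-fold higher in siPIAS1 than in siSCR cells. The other KLK12 probe was detected on no array. KLK11 had 1 probe detected on 1 array, which was not tested.

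Among the 30 tested of 35 listed androgen-induced genes outside the kallikreins, testosterone raised 27 after siPIAS1 and lowered none, where 24.6% of probes were called higher and 26.8% lower (median 1.27, against -0.0098 over all probes). After siSCR it raised 22 and lowered 1, where 19.2% of probes were called higher and 20.7% lower (median 1.05, against -0.0010 over all probes). FKBP5, a chaperone of steroid receptors, rose by 3.98 ± 0.09 after siPIAS1 and by 4.01 ± 0.09 after siSCR. NCAPD3, a condensin subunit, rose by 5.37 ± 0.12 after siPIAS1 and by 4.30 ± 0.12 after siSCR. The interaction was called higher for 8 of the 30 and lower for 3, where 3.83% of probes were called higher and 3.93% lower, with a median of 0.10 against -0.017 over all probes. Those called lower, as KLK2 was, were MAF (-0.87), CREB3L4 (-0.57) and TMPRSS2 (-0.56), named after their values were seen, and each of them was still raised by testosterone after siPIAS1, by 1.54, 1.05 and 1.25 in that order. PTGER4, a prostaglandin receptor, had the largest positive interaction of the list, 2.89 ± 0.16 (adjusted p = 2.20e-07). It was the listed gene that testosterone lowered after siSCR (-0.56 ± 0.11, adjusted p = 0.00117). ELL2, a transcription elongation factor, had an interaction of 1.65 ± 0.17 (adjusted p = 5.41e-05). The list's calls for the response after siPIAS1 and for the interaction were the same without siPIAS1+T replicate 3, with medians of 1.25 and 0.086.

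**Figure D3:**
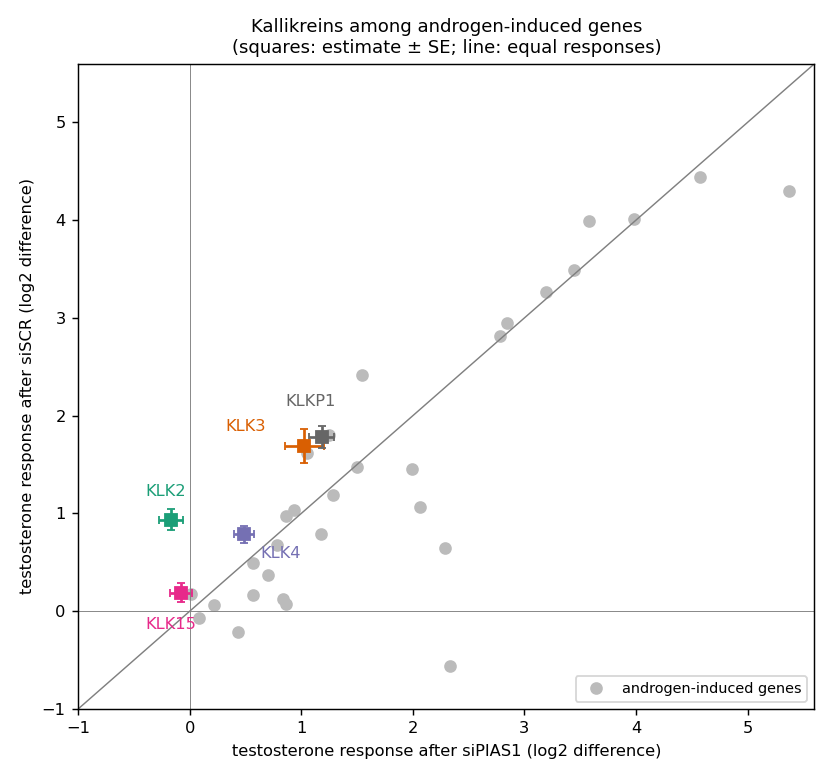
Testosterone response (log2 difference) after siPIAS1 (horizontal axis) and after siSCR (vertical axis) for the 4 tested kallikreins and KLKP1 (squares, ± SE) and for 30 androgen-induced genes (grey points); on the diagonal both responses are equal. KLK2 lies above the line at -0.17 and 0.94. Both KLK2 and KLK15 (-0.08 after siPIAS1) are to the left of all 30 grey points, and neither response after siPIAS1 was called. PTGER4 is the grey point lowest below the line at 2.33 and -0.56.

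Of these 30 androgen-induced genes, 7 were higher and 1 lower in siPIAS1 than in siSCR cells, where 5.51% of all probes were called higher and 4.07% lower (median 0.12, against -0.014 over all probes). RAB3B, a vesicle-traffic GTPase, rose by 0.84 ± 0.13 (adjusted p = 0.00146), though its testosterone response after siSCR was not called (0.08 ± 0.13, adjusted p = 0.684). SLC45A3, which encodes the luminal protein prostein, rose by 0.65 ± 0.11 (adjusted p = 0.00251). With testosterone, 14 were higher and 6 lower in siPIAS1+T than in siSCR+T cells, where 13.6% of all probes were called higher and 15.3% lower (median 0.24, against -0.015 over all probes). The counts were 15 and 6 without siPIAS1+T replicate 3 (median 0.31). TMPRSS2, a transmembrane serine protease, was lower in that comparison (-0.66 ± 0.10, adjusted p = 2.45e-04), next to KLK2 with its -0.61.

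Inhibitors, substrates and activation partners of the kallikreins moved in both directions, with 14 of the 28 listed genes tested. Testosterone raised 7 and lowered 1 of these 14 after siPIAS1, against 24.6% of all probes called higher and 26.8% lower (median 0.34). It raised 4 and lowered 3 after siSCR, against 19.2% called higher and 20.7% lower (median 0.11). SERPINA3, the plasma inhibitor that binds PSA, was not detected without hormone in either siRNA state. With testosterone it was at least 8.31-fold higher after siPIAS1 and at least 4.20-fold higher after siSCR. Its probe met the detection filter only through the testosterone groups, where it was higher, so no p-value is given for it. The size of its interaction is not given, since both levels without hormone lay below detection. IGFBP3, the binding protein of insulin-like growth factors that PSA can cleave, was lower with testosterone, with a difference of -5.22 ± 0.12 after siPIAS1 (adjusted p = 1.81e-12) and at least 25.9-fold after siSCR (adjusted p = 2.04e-12). MSMB, the seminal plasma protein β-microseminoprotein, rose with the knockdown in both hormone states, by 2.09 ± 0.13 in siPIAS1+T against siSCR+T cells (adjusted p = 1.12e-07) and at least 1.79-fold in siPIAS1 against siSCR cells (adjusted p = 1.63e-06). With testosterone, the knockdown comparison had 8 of the 14 higher and 1 lower, against 13.6% of all probes called higher and 15.3% lower (median 0.42). Without testosterone 5 were higher and none lower, against 5.51% called higher and 4.07% lower (median 0.15). VTN, the matrix protein vitronectin, was at least 4.93-fold higher in siPIAS1+T than in siSCR+T cells (adjusted p = 1.62e-07) and rose by 1.71 ± 0.18 without hormone (adjusted p = 6.05e-05). The interaction was called higher for 3 of the 14 and lower for 2, against 3.83% and 3.93% of all probes (median 0.14). TMPRSS2 (-0.56), detected on all 12 arrays, was 1 of those called lower. The other 4, SERPINA3, SPINK1, VTN and SERPINA1 (named after its value was seen), each had at least 1 group with no array detected, so their interaction calls rest on signal below detection and are not given as sizes. Leaving out siPIAS1+T replicate 3, testosterone raised 6 and lowered 1 after siPIAS1 (median 0.20), and the knockdown with testosterone raised 8 and lowered 1 (median 0.34). The MSMB difference with testosterone was then 2.19, the SERPINA3, IGFBP3 and VTN calls counted above were the same, and the median interaction was 0.093 with the same calls.

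Of the listed cofactors of androgen signalling, 11 were tested, PIAS1 included. Testosterone raised 3 and lowered 1 after siPIAS1 (median 0.027), against 24.6% of all probes called higher and 26.8% lower. After siSCR it raised 1 and lowered 2 (median -0.067), against 19.2% and 20.7%. The knockdown raised 4 and lowered 1 with testosterone (median 0.16), against 13.6% and 15.3%. Without testosterone it raised none and lowered 1, PIAS1 itself (median -0.035), against 5.51% and 4.07%. In the interaction 2 of them were called higher and none lower (median 0.18), against 3.83% and 3.93%. These were GATA2, a transcription factor of luminal prostate cells (0.75 ± 0.17, adjusted p = 0.0162), and PIAS4, another SUMO ligase of the PIAS family (0.60 ± 0.15, adjusted p = 0.0220). GATA2 fell with testosterone in both siRNA states, with differences of -0.86 ± 0.12 after siPIAS1 and -1.61 ± 0.12 after siSCR. FOXA1 and HOXB13, further transcription factors of luminal cells, were not called in any comparison over all 12 arrays, with differences between -0.19 and 0.20. FOXA1 was, without siPIAS1+T replicate 3, called higher in siPIAS1+T than in siSCR+T cells (0.32, adjusted p = 0.0349), and testosterone then raised 2 and lowered 2 of the cofactors after siPIAS1. The knockdown counts with testosterone were again 4 higher and 1 lower, and the interactions of GATA2 (0.66) and PIAS4 (0.59) were still called.

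The members' own patterns separated them. Across the 12 arrays KLK3 and KLK4 had a Pearson correlation of 0.969, KLK2 had 0.680 with KLK3 and 0.640 with KLK4, and KLK15 had 0.200 with KLK2, 0.395 with KLK3 and 0.449 with KLK4. The points are 12 arrays in 4 groups and share the group differences, so these values describe the group patterns. KLK2 was most like BHLHE40, a transcriptional repressor (r = 0.936), followed by GSKIP, PIK3C2A, MICALCL and IFRD1 (0.920 to 0.916). BHLHE40 had responses of -0.18 after siPIAS1 and 0.88 after siSCR, next to -0.17 and 0.94 for KLK2. KLK3 was most like ZNF189 (0.990), EFR3A, C9orf152, PRR15L and GOLGA4 (0.978 to 0.975). KLK4 was most like SNAP91 (0.987), FAM107A, RAP1GAP, RBM20 and MYBPC1 (0.986 to 0.981), and KLK15 was most like ATP8B2 (0.957), ATP2A3, TUBB3, P3H2 and SIDT2 (0.951 to 0.933). With Spearman's correlation 1, 2, 0 and 1 of these 5 genes stayed among the leading 5 of KLK2, KLK3, KLK4 and KLK15. BHLHE40 and ZNF189 led for KLK2 and KLK3 with either measure, whereas KLK4 and KLK15 were led by INSIG1 (0.986) and NXN (0.937) with Spearman's correlation.

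**Figure D4:**
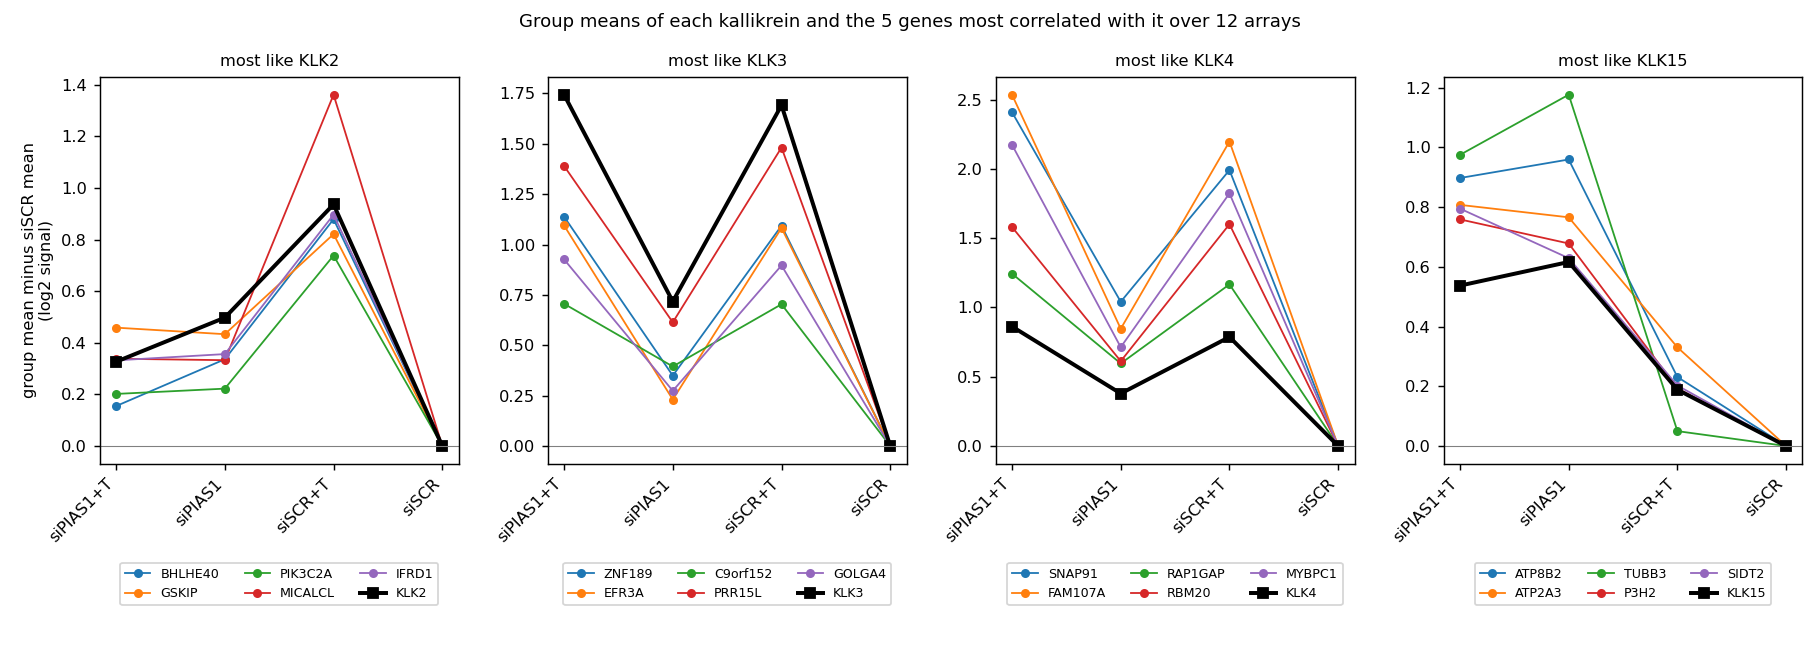
Group means minus the siSCR mean (log2 signal, vertical axis) in the 4 groups for each kallikrein (black squares) and the 5 genes most correlated with it over 12 arrays (coloured points); lines join the groups of a gene and the vertical scales differ. KLK2 and its 5 genes peak in siSCR+T, KLK3 and KLK4 peak in both testosterone groups, and KLK15 is high in both siPIAS1 groups.

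**Figure D5:**
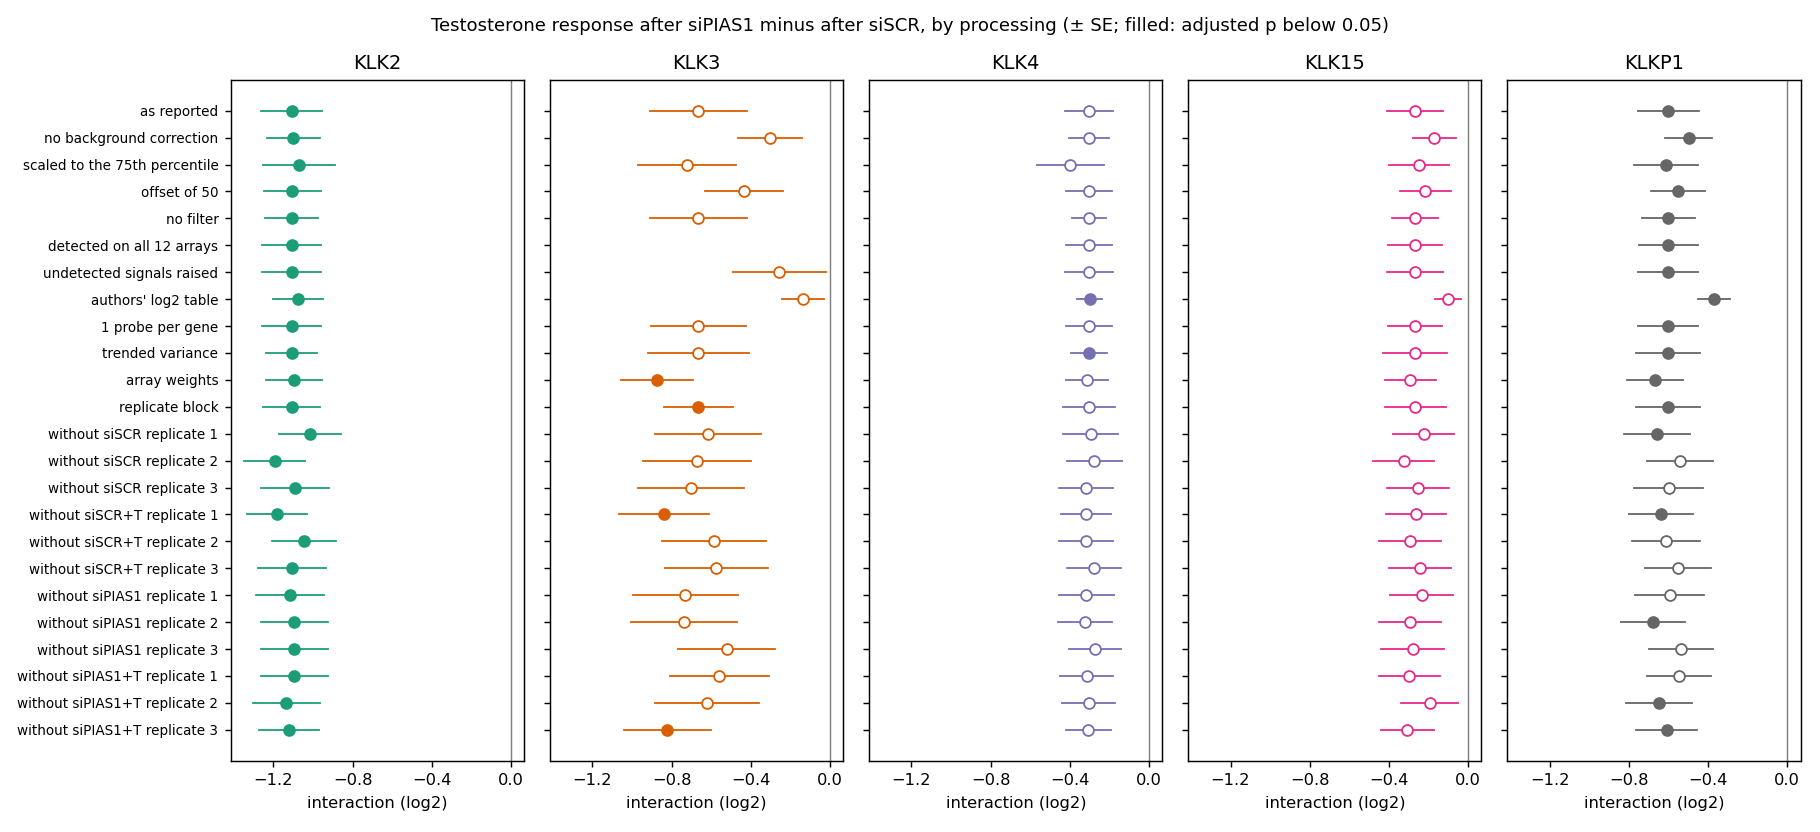
Response to testosterone after siPIAS1 minus that after siSCR (log2, horizontal axis, ± SE) for the 4 tested kallikreins and KLKP1 under each way of processing (rows), filled where the adjusted p was below 0.05. KLK2 is filled in every row, between -1.19 and -1.02, while KLK3 is filled in 4 rows, KLK4 in 2, KLK15 in none, and KLKP1 is open in 7 rows.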

How the data were processed

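Scanner intensity for each probe and array was deposited unnormalized, per the file headers, with a detection p-value beside it. The authors also deposited a log2 table, and the submitters' processing notes name lumi, with no settings given. In that table each array ranks the probes as its own signals do (lowest rank correlation 1), and over 1879 probes brighter than 2000 the slopes of array differences were 0.834 to 1.08. Its scale is thus log2-like, its direction is kept and genes are not centred (array medians 7.60 to 7.61), but the exact transform is unknown, so it served only as an alternative.

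For the present results, background correction and quantile normalization used neqc (limma 3.58.1, R 4.3.3) with an offset of 16, which compresses folds at low signal. Symbols came from the platform annotation and were brought up to date by gene identifier against RefSeq (30113 probes have 1 symbol, 8 several and 17202 none). Probes with a detection p under 0.01 on 3 or more arrays were tested. The limma fit used all 12 arrays with a mean for each of the 4 groups (8 residual and 5.55 prior degrees of freedom), was tested on simulated data, and gave two-sided p-values. With 3 arrays a group, exact permutation cannot reach 0.05, so it was not run, and the number of arrays limits the precision. Each listed gene stands for its brightest tested probe. The kallikreins, the lists and the rule for named genes (every member, up to 4 of a list by smallest p, the 5 most correlated genes) were chosen with earlier results of these data known. Promoter windows are from RefSeq (GRCh38.p14). Probe and protein sequences were not used here. Alternatives covered background, scaling, offset, filter, variance model, arrays fitted, replicate number, the authors' table and each array left out.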

Additional observations from a re-analysis of the deposited data

Results flagged for a closer look

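The hormone response of KLK2 differed between the siRNA states. Testosterone changed it by -0.17 ± 0.11 after siPIAS1 and by 0.94 ± 0.11 after siSCR (log2), a difference of -1.11 (adjusted p = 5.99e-04, limma's moderated test over 17835 probes). All 3 siPIAS1+T arrays were below the siPIAS1 arrays, and all 3 siSCR+T arrays were above the siSCR arrays. The pseudogene KLKP1, which lies beside KLK2, rose by 1.18 ± 0.11 after siPIAS1 and by 1.78 ± 0.11 after siSCR, a difference of -0.60 (adjusted p = 0.0305). PIAS1 was itself higher with testosterone in both siRNA states, and its part in these differences was not tested.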

How the results depend on the processing

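The alternatives gave 828 values of the kallikreins, KLKP1 and PIAS1 and counts of all called probes. Of these, 779 stayed on their side of the threshold or, for counts, within 1.5 times. A further 23 lost a call, 6 gained one, 20 counts of probes moved by over 1.5 times, and no called direction turned. Some uncalled values changed sign. For siPIAS1 with testosterone this happened in 3 settings for KLK3 and 1 for KLK4, and without testosterone in 2 for KLKP1. The KLK2 interaction lay between -1.19 and -1.02 without any 1 array and between -1.11 and -1.07 otherwise, with adjusted p between 5.95e-05 and 0.00287.

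For siPIAS1 without testosterone, KLK2 and KLK4 missed the threshold with 75th percentile scaling (0.35 and 0.27), and KLK3 missed it without background correction (0.34), with undetected signals set at the detection limit (0.31) and in the authors' table (0.15). Without 1 array the values were 0.41 to 0.59 for KLK2, 0.57 to 0.79 for KLK3 and 0.35 to 0.40 for KLK4. KLK2 was not called without siSCR replicate 1. KLK3 was not called without siSCR replicate 1 or 2 or siPIAS1 replicate 3, nor KLK4 without siSCR replicate 1 or 2 or siPIAS1 replicate 1 or 3. With testosterone, the KLK15 value of 0.35 missed the threshold when only the groups compared were fitted (adjusted p = 0.0893), and without 1 array it was 0.31 to 0.42. The KLK3 interaction, which rests on a siSCR level below detection, passed with array weights (-0.87). Without 1 array it was -0.84 to -0.52, and in the other settings it was -0.87 to -0.14. Its adjusted p over all settings reached 0.537. The KLK4 interaction of -0.30 passed in the authors' table and with a trended variance. KLK3 has no value among probes detected on all 12 arrays, and the cause of these changes was not tested.

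The siPIAS1 probes called without testosterone were 4430 with array weights, 3366 with only the groups compared and 756 to 3327 without 1 array. Those with testosterone were 2754 with only the groups compared and 3309 to 5569 without 1 array. Interaction probes were 3368 with array weights and 823 to 1864 without 1 array. Testosterone after siPIAS1 changed 5899 of 10710 probes with 1 probe per gene, against 9155 of 17835 as reported, so fewer probes were tested there.

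Replicate numbers did not pair the arrays: same-numbered arrays of different groups had correlated deviations of -0.26 to 0.18, and 1 of 18 pairs was above 0.1. With a replicate block the KLK3 interaction of -0.66 passed the threshold (adjusted p = 0.0424), KLK2 stayed at -1.11 (adjusted p = 7.87e-04), and no other kallikrein call changed. Leaving out siPIAS1+T replicate 3 for the gene lists was chosen after seeing the data. A chip block was not run, because the headers name no chip.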
